A study of Mus musculus with 15 samples.

Results

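Striatal projection neuron genes were followed in 15 mRNA-seq libraries of mouse dorsal forebrain at embryonic day 18. The 9 genes were listed by name and not by a threshold on these values, though with earlier results of these data known: the neuropeptide precursors Penk and Tac1, the dopamine receptors Drd1 and Drd2, the signalling proteins Ppp1r1b and Rgs9, and the transcription factors Foxp1, Foxp2 and Meis2. They are 9 of the 53337 genes to which transcripts were summed, and all 9 passed the filter on low values in every comparison. C57BL/6J dams carried subcutaneous minipumps that released arginine vasopressin (AVP) or saline from before breeding and through pregnancy, the AVP infusion being a model of preeclampsia. Of the males, 4 came from AVP and 4 from saline dams, and of the females 3 and 4, all on the C57BL/6J background with no transgene. The litters gave offspring of both sexes, and the study drew more samples than litters, so that some libraries share a dam. The labels do not say which. Libraries are named here by their group and the number in their title, for example AVP male 8.

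The striatum lies ventral to the cortex and develops from the lateral ganglionic eminence, so it lies outside a strictly dorsal forebrain sample. Its main cells are GABAergic projection neurons of a direct pathway, which carry Drd1 and Tac1, and an indirect pathway, which carry Drd2 and Penk. Several members are also known from cortical neurons, among them Foxp1, Foxp2, Meis2, Drd1 and Ppp1r1b. In bulk tissue, fewer cells of a type and less RNA per cell cannot be told apart.

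Sequences of both peptide precursors are shown because Tac1 and Penk, with Drd2, varied most between libraries and because their products define the pathways. Penk (chromosome 4, 4133531 to 4138819, minus strand, GRCm38) codes for the enkephalins. Tac1 (chromosome 6, 7554879 to 7565834, plus strand) codes for substance P and neurokinin A. The stretches below are exonic and come from the GENCODE M21 transcripts. Capitals mark the last codon of the enkephalins, where Met and Leu forms differ, and the last 15 bases of each tachykinin stretch, which code for the same residues in both peptides except at the second codon.
Met-enkephalin, first copy, chr4:4134334-4134348, exon 2 of Penk-201: tacggaggcttcATG
Leu-enkephalin, chr4:4133941-4133955, exon 2 of Penk-201: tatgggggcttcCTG
substance P, chr6:7556732-7556764, exon 3 of Tac1-203: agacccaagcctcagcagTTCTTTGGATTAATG
neurokinin A, chr6:7559101-7559130, exon 5 of Tac1-203: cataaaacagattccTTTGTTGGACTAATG

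Penk-201 held 6 stretches for Met-enkephalin and 1 for Leu-enkephalin, and the shorter Penk-202 held 3 and 0. Both Penk transcripts had TPM in every library. Tac1-203 and 1 further Tac1 transcript held both tachykinin stretches, and 2 others held substance P without neurokinin A. Transcripts with the neurokinin A stretch took a median of 96.1% of Tac1 TPM over the 15 libraries, with a range of 67.7% to 100%. In AVP females this share was 73.4% to 94.7%, and in saline females 86.3% to 99.96%, so the groups overlapped. These shares are estimates by the quantification model, which divides reads that fit several transcripts.

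The promoter table from RefSeq (GRCm38.p6) held 9 promoters of 6 members: Tac1, Drd1, Drd2, Foxp1, Rgs9 and Meis2. Of these, Tac1 alone held the cyclic AMP response element variant TGCGTCA, searched on both strands in the 250 bases before the start. It was present in 574 of 32851 promoters of that length (1.75%). The full palindrome TGACGTCA was in 1.55% of promoters and in 0 of the members' promoters. The match in Tac1 lies at 7554862 to 7554868, 17 bases before the first annotated base of the gene. The bases upstream of that first base are printed because Tac1 had the widest range of all members, with the motif in capitals.
Tac1 upstream, chr6:7554811-7554878, plus strand: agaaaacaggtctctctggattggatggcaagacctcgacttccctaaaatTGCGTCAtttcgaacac

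The deposited table does not name its unit. Its values were read as TPM, because every column has the same total and the quantification program reports TPM. TPM are transcript abundances scaled to transcript length and to each library's total. The study gives average read numbers per sample but not those of each library. The depth behind a single value was therefore unknown, and no counting interval was given. Differences are on the scale log2(TPM + 0.5), which understates changes of low genes such as Drd2. P-values measure the spread between libraries. Over both sexes they count libraries of 1 litter as independent, although the dam was the one treated. The library labelled saline male 12 had Xist at 266 TPM and a sum of 0.489 TPM over 4 Y-linked genes. Females had Xist at 174 to 294 TPM and the other males had a Y-linked sum of 102 to 155 TPM, so 14 of 15 libraries matched their labels. Values without this library are given where a direction or a call depends on it. AVP female 10 stood apart with the highest levels of 4 of 5 septal Zic genes, Zic1 at 27.9 TPM against a median of 9.87 TPM over all libraries. It also had the highest mean log2(TPM + 0.5) of 7 thalamic genes, 2.63 against a median of 1.78 over all libraries. Its mean of 11 pallial genes was the highest as well, 6.31 against a median of 5.996.

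In the saline libraries, Meis2 was the most abundant member, with a median of 180.1 TPM (147 to 196, n = 8). Ppp1r1b followed at 46.6 TPM (28.4 to 61.4) and Foxp1 at 43.55 TPM (37.0 to 57.9). Below these came Tac1 at 16.9 TPM, Foxp2 at 10.8 TPM, Rgs9 at 10.01 TPM, Penk at 9.44 TPM and Drd1 at 7.55 TPM. Drd2 was lowest, at 2.39 TPM (0.800 to 6.14). Only Meis2 was separate from its neighbour in this order, and the ranges of all other neighbours overlapped.

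**Figure D1:**
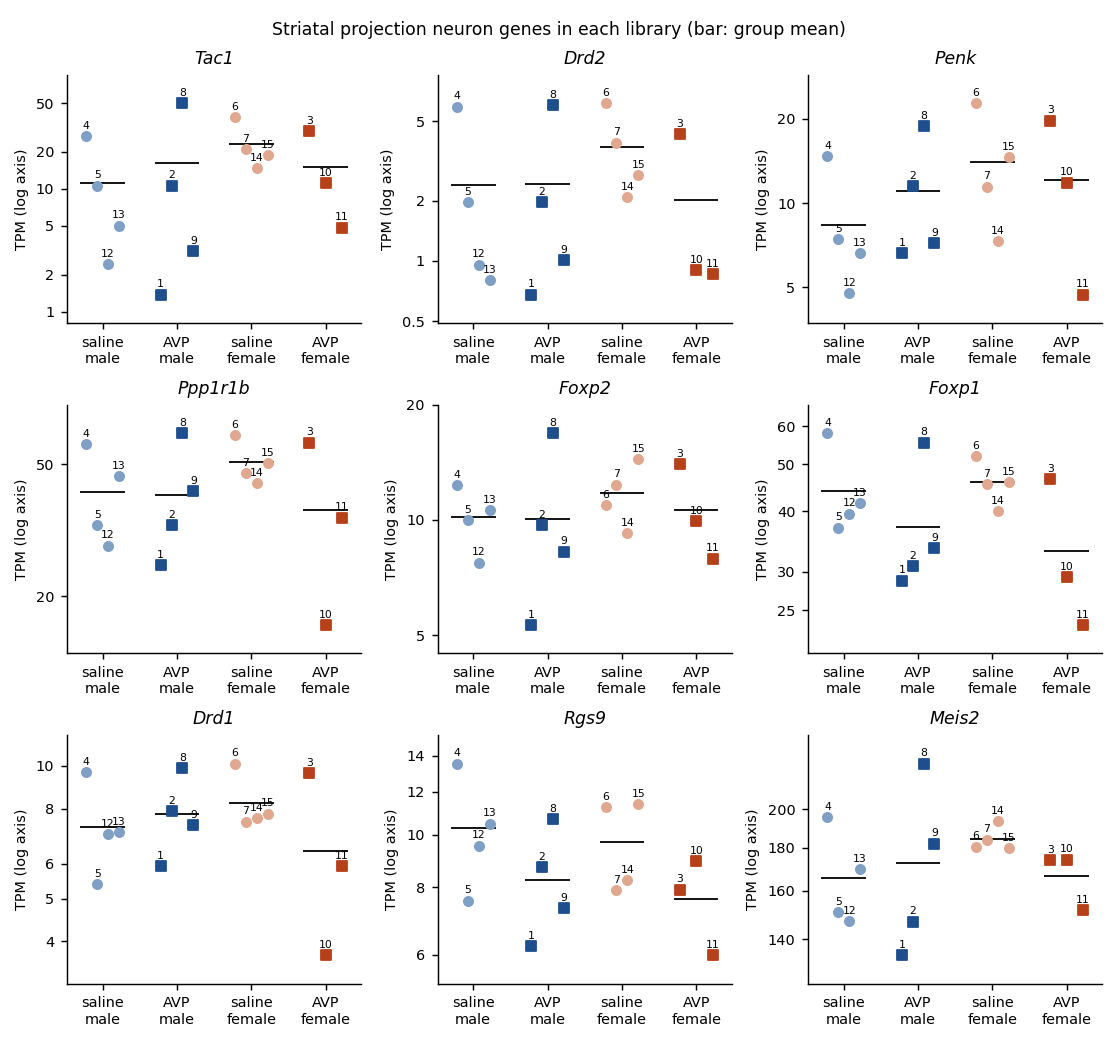
TPM of each member (log axis) in each library, by group, with the number in the library's title beside each point and a bar at the group mean. AVP male 8, saline male 4, saline female 6 and AVP female 3, one library in each group, stand at or near the top for most members, and Tac1 runs from 1.38 to 49.9 TPM within AVP males.

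The members differed mainly between libraries of the same group. Tac1 had 1.38, 10.6, 49.9 and 3.11 TPM in AVP males 1, 2, 8 and 9, and 27.0, 10.6, 2.44 and 5.02 TPM in saline males 4, 5, 12 and 13. It had 29.5, 11.1 and 4.85 TPM in AVP females 3, 10 and 11, and 38.3, 21.1, 14.8 and 18.96 TPM in saline females 6, 7, 14 and 15. The highest AVP male was thus 36.3 times the lowest, and every pair of groups overlapped. Penk, the precursor of the indirect pathway's enkephalins, followed the same libraries over a narrower range. It had 6.62, 11.5, 18.8 and 7.20 TPM in AVP males and 14.7, 7.44, 4.76 and 6.63 TPM in saline males. AVP females had 19.7, 11.8 and 4.71 TPM, and saline females 22.7, 11.4, 7.30 and 14.6 TPM. The highest library of each group was near or above 15 TPM, and the treatments overlapped in both sexes.

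Drd2, the receptor of indirect pathway neurons, had 0.678, 1.97, 6.01 and 1.01 TPM in AVP males and 5.91, 1.97, 0.958 and 0.800 TPM in saline males. AVP females had 4.31, 0.902 and 0.861 TPM, and saline females 6.14, 3.90, 2.08 and 2.69 TPM. AVP male 8, saline male 4 and saline female 6 had close to 6 TPM, and 6 libraries from 3 groups had about 1 TPM or less. Drd1, the receptor of direct pathway neurons, varied less. It had 5.92, 7.90, 9.90 and 7.34 TPM in AVP males and 9.66, 5.39, 7.01 and 7.09 TPM in saline males. AVP females had 9.62, 3.73 and 5.92 TPM, and saline females 10.1, 7.47, 7.62 and 7.80 TPM. The lowest level of Drd1 was in AVP female 10, where Tac1 and Penk were near their medians.

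Ppp1r1b codes for DARPP-32, the phosphatase inhibitor that dopamine and cyclic AMP signals act on. It had 24.9, 32.8, 61.9 and 41.6 TPM in AVP males, 57.5, 32.8, 28.4 and 46.1 TPM in saline males, 58.1, 16.4 and 34.5 TPM in AVP females, and 61.4, 47.1, 43.8 and 50.4 TPM in saline females. AVP female 10 was the lowest library for Ppp1r1b as for Drd1. Of its TPM, the transcript annotated as a retained intron, Ppp1r1b-202, took a median of 49.1% (41.1% to 62.4%), and the coding transcript Ppp1r1b-201 took 38.5% (32.8% to 46.5%). Rgs9, a GTPase-activating protein that shortens dopamine receptor signalling, had 6.24, 8.73, 10.7 and 7.31 TPM in AVP males and 13.5, 7.55, 9.55 and 10.5 TPM in saline males. AVP females had 7.92, 8.93 and 6.00 TPM, and saline females 11.2, 7.90, 8.24 and 11.4 TPM. The short form Rgs9-204 of 484 codons took a median of 40.0% of Rgs9 TPM (28.2% to 59.8%) and the long form Rgs9-201 of 675 codons took 31.1% (14.5% to 55.9%). The long form is the one known from striatum and the short one from retina.

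Among the transcription factors, Meis2 had the narrowest range of all members, with a highest library at 1.69 times the lowest, and Rgs9 (2.26) and Foxp1 (2.48) came next. Foxp1, which takes part in the differentiation of projection neurons, had 28.8, 30.8, 55.5 and 33.5 TPM in AVP males and 57.9, 37.0, 39.6 and 41.7 TPM in saline males. AVP females had 46.6, 29.3 and 23.3 TPM, and saline females 52.0, 45.5, 40.1 and 46.0 TPM. In males 3 of 4 AVP libraries, and in females 2 of 3, were below every saline library of their sex, with AVP male 8 and AVP female 3 the exceptions. Foxp2, its relative, ran from 5.32 to 16.8 TPM in AVP males, 7.74 to 12.3 TPM in saline males, 7.92 to 13.97 TPM in AVP females and 9.23 to 14.4 TPM in saline females. Meis2, a homeodomain factor of the ganglionic eminence that is also present in the cortex, had 134, 147, 227 and 182 TPM in AVP males and 196, 151, 147 and 170 TPM in saline males. AVP females had 174.1, 174.2 and 152 TPM, and saline females 181, 184, 194 and 179.7 TPM. The female groups did not overlap for Meis2, and the male groups did. Over all genes tested, groups did not overlap for 5.55% in females and 7.27% in males, in either direction.

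The spread within groups put most members above the typical gene. The within-group SD of log2(TPM + 0.5) was 1.44 for Tac1, 0.96 for Drd2, 0.73 for Penk and 0.55 for Ppp1r1b, against a median of 0.21 over all genes tested. Tac1 had a larger SD than 98.3% of genes, Drd2 than 97.3% and Penk than 96.05%. Foxp2 (0.43), Drd1 (0.36), Foxp1 (0.35) and Rgs9 (0.30) were also above the median, while Meis2 (0.21) was at it. The ranks of Tac1, Drd2 and Penk took in genes of all levels. Their mean TPM exceeded that of 48.65%, 13.3% and 39.3% of genes.

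The members moved together between libraries. With each group's mean removed, all 36 pairs of members had a positive Pearson r over the 15 libraries, with a median of 0.73 and a range of 0.41 to 0.93. AVP male 8 and saline male 4 were among the 5 highest libraries for 9 of 9 members, and AVP female 3 and saline female 6 for 7 of 9. AVP male 1 was among the 5 lowest for 9 of 9, AVP female 11 for 8 of 9 and saline male 12 for 7 of 9. The low values of AVP female 11 were not confined to the members, since its interneuron mean was also the lowest of all libraries. Both ends of the order thus held AVP and saline libraries, and libraries of both series of sample numbers.

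To set the members beside other genes of the same neurons, each gene was fitted on the mean log2(TPM + 0.5) of 24 other striatal genes, none of them a member, with the 4 group means as terms. A slope of 1 means that a gene moved by as many log2 units as the list mean. At an adjusted p under 0.05, 38 of 15078 genes had a slope (0.252%), 37 of them positive, and 4 of 9 members were among them. Tac1 had a slope of 2.73 ± 0.19 (SE, adjusted p = 1.23e-05), Drd2 of 1.82 ± 0.16 (adjusted p = 5.47e-05), Penk of 1.33 ± 0.15 (adjusted p = 0.000708) and Foxp1 of 0.63 ± 0.09 (adjusted p = 0.00586). Without AVP female 3 the adjusted p of Foxp1 was 0.0502, and without AVP male 8 it was 0.0925.

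The other 5 members had positive slopes that did not pass the threshold. These were 0.71 ± 0.13 for Foxp2 (adjusted p = 0.0527), 0.76 ± 0.21 for Ppp1r1b (adjusted p = 0.467), 0.52 ± 0.15 for Drd1 (adjusted p = 0.583), 0.42 ± 0.13 for Rgs9 (adjusted p = 0.674) and 0.28 ± 0.09 for Meis2 (adjusted p = 0.708). Foxp2 passed without saline female 6 (adjusted p = 0.0229), saline female 15 (adjusted p = 0.0256) or saline male 13 (adjusted p = 0.0495), and Ppp1r1b without AVP female 10 (adjusted p = 0.0495). The median slope of the members was 0.71, against 0.03 over all genes. The 95% intervals were 2.31 to 3.15 for Tac1, 1.48 to 2.15 for Drd2 and 1.004 to 1.66 for Penk, and the upper bounds for Foxp1, Foxp2, Drd1, Rgs9 and Meis2 were all at or under 1.002. Among the list's own genes, which are part of the mean, 11 of 20 tested passed, among them Rxrg at 2.99 and Isl1 at 2.41.

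**Figure D2:**
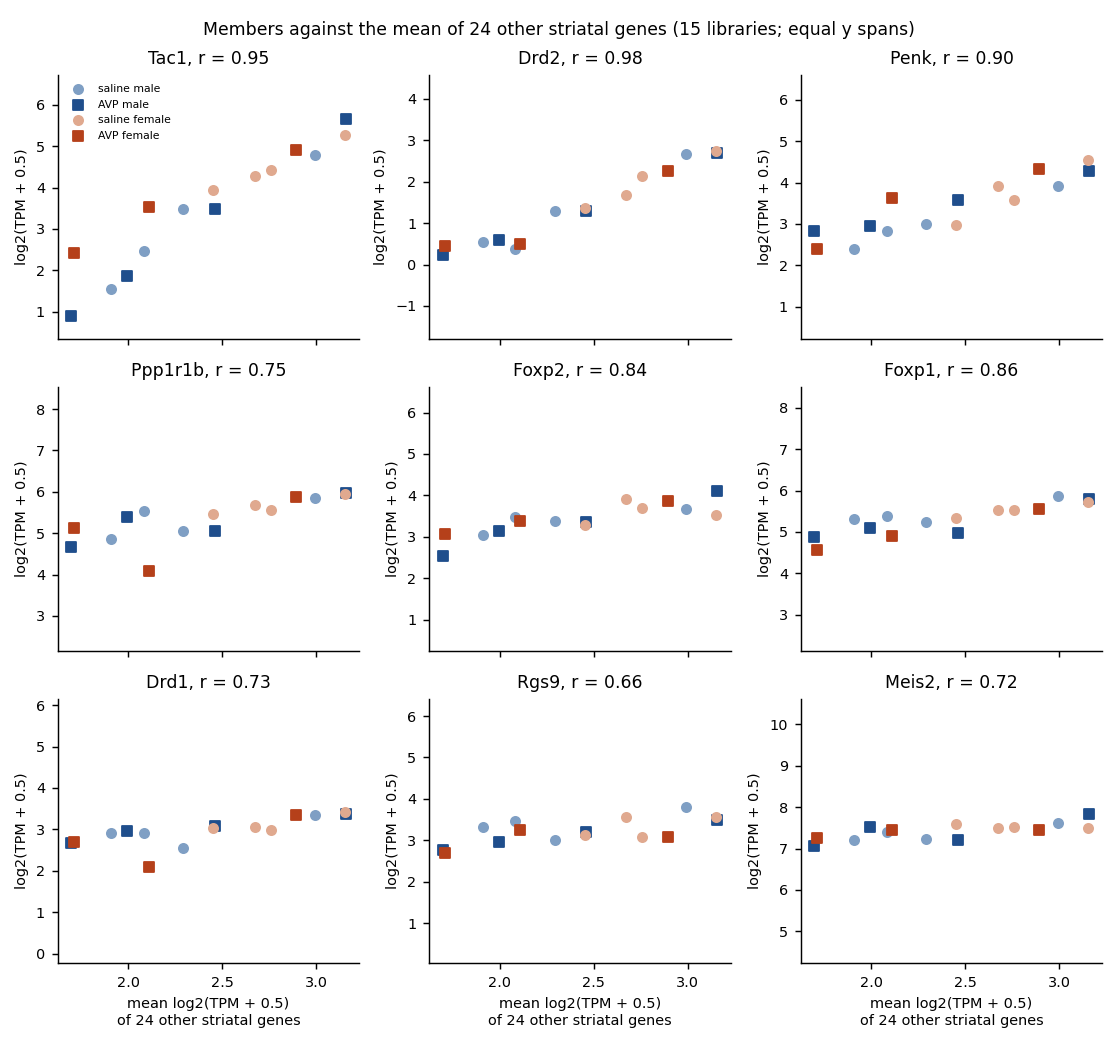
log2(TPM + 0.5) of each member (y axis, the same span in each panel) against the mean log2(TPM + 0.5) of 24 other striatal genes (x axis) in 15 libraries, coloured by group. Tac1, Drd2 and Penk climb steeply and Meis2 is nearly flat, and AVP libraries lie at both ends of the x axis.

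Across the 15 libraries, the correlation with the list mean was highest for Drd2 (Pearson r = 0.98, Spearman rho = 0.95) and Tac1 (r = 0.95, rho = 0.97). Their permutation p of 1e-05 is the smallest that 100000 resamples can give. Penk had r = 0.90, Foxp1 0.86, Foxp2 0.84, Ppp1r1b 0.75, Drd1 0.73, Meis2 0.72 and Rgs9 0.66, the last with a permutation p of 0.00845. These 9 correlations share libraries and the scaling to a common total. Without AVP male 1 and AVP female 11, the libraries farthest from the median of the list mean, r was 0.98 for Drd2, 0.95 for Tac1 and 0.89 for Penk, and it fell to 0.60 for Meis2 and 0.45 for Rgs9. Within the libraries numbered S1 to S8 (n = 7), r ran from 0.78 for Rgs9 to 0.99 for Drd2. Within those numbered S13 to S20 (n = 8), it ran from 0.59 for Drd1 to 0.96 for Drd2.

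The genes most like each member, by r of group-centred values over 15 libraries among 13434 genes, differed by member. Those most like Drd2 included Rxrg (r = 0.98) and Pde7b (0.97), and Tac1 was closest to Pde7b (0.96), Rxrg (0.96) and Rarb (0.95). Rxrg itself ran from 1.01 to 32.1 TPM. Penk was closest to Epha8 (0.98), Ngef (0.96) and Gng7 (0.95). Ppp1r1b and Drd1 were among each other's closest genes (0.91), beside Rgs16 (0.93) and Btbd11 (0.90) for Ppp1r1b and Gzmm (0.93) and Enc1 (0.90) for Drd1. Foxp1 was closest to Sertad4 (0.96), Nexn (0.92) and Plk2 (0.91), and Foxp2 to Dlx6 (0.93), Smad3 (0.91) and Mob3c (0.90). Rgs9 was closest to Arpp21 (0.92), Hs3st5 (0.89) and Kndc1 (0.89), and Meis2 to Abcb10 (0.89), Cry1 (0.87) and Pou3f4 (0.87).

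The comparison of AVP with saline asks whether the infusion of the dam altered these genes in the offspring. In males, 0 of 9 members passed (background 0.00655%, 1 of 15271 genes), and 0 had an unadjusted p under 0.05, against 2057 of all genes. The groups did not overlap for 0 of 9 members, against 7.27% of genes in either direction and 6.54% with AVP lower. Penk differed by 0.37 ± 0.39 (SE), Rgs9 by -0.30 ± 0.20 and Foxp1 by -0.27 ± 0.22, with limma adjusted p-values of 0.686, 0.524 and 0.584. The other 6 members lay between -0.11 and 0.09, Tac1 at -0.10 with an interval of -2.42 to 2.22. The median of the members was -0.06, against -0.10 over all genes. Under median-of-ratios scaling the signs of Ppp1r1b, Drd2 and Tac1 turned, and under quantile normalization also that of Foxp2.

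In females, all 9 members were lower on average after AVP, and 0 of 9 passed (background 0%, 0 of 15132 genes). Of all genes, 683 had an unadjusted p under 0.05, and among the members Foxp1 alone did. The differences were -0.91 ± 0.50 for Drd2, -0.86 ± 0.54 for Tac1, -0.64 ± 0.36 for Ppp1r1b, -0.52 ± 0.22 for Foxp1, -0.42 ± 0.28 for Drd1, -0.33 ± 0.20 for Rgs9, -0.30 ± 0.49 for Penk, -0.16 ± 0.22 for Foxp2 and -0.15 ± 0.08 for Meis2, with a limma adjusted p of 0.999 for each. The median of the members was -0.42, against -0.05 over all genes. For Meis2, the one member whose groups did not overlap (background 5.55% of genes in either direction and 2.77% with AVP lower), the exact permutation p was 0.0286, the smallest that 3 against 4 libraries allow. Without AVP female 3 the differences were larger for every member, among them Ppp1r1b (-1.06), Drd1 (-0.74), Drd2 (-1.51), Foxp1 (-0.79), Foxp2 (-0.37), Penk (-0.74) and Tac1 (-1.502). Without AVP female 10 Ppp1r1b was at -0.16 and Drd1 at -0.11. Without AVP female 11 Tac1 was at -0.26, Drd2 at -0.60, Foxp1 at -0.30, Rgs9 at -0.17, Meis2 at -0.083, Foxp2 at 0.023 and Penk at 0.23. The exact p of the other 8 members was between 0.114 and 0.629. For the most abundant Meis2 transcript alone, the difference was 0.003 (exact p = 1).

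**Figure D3:**
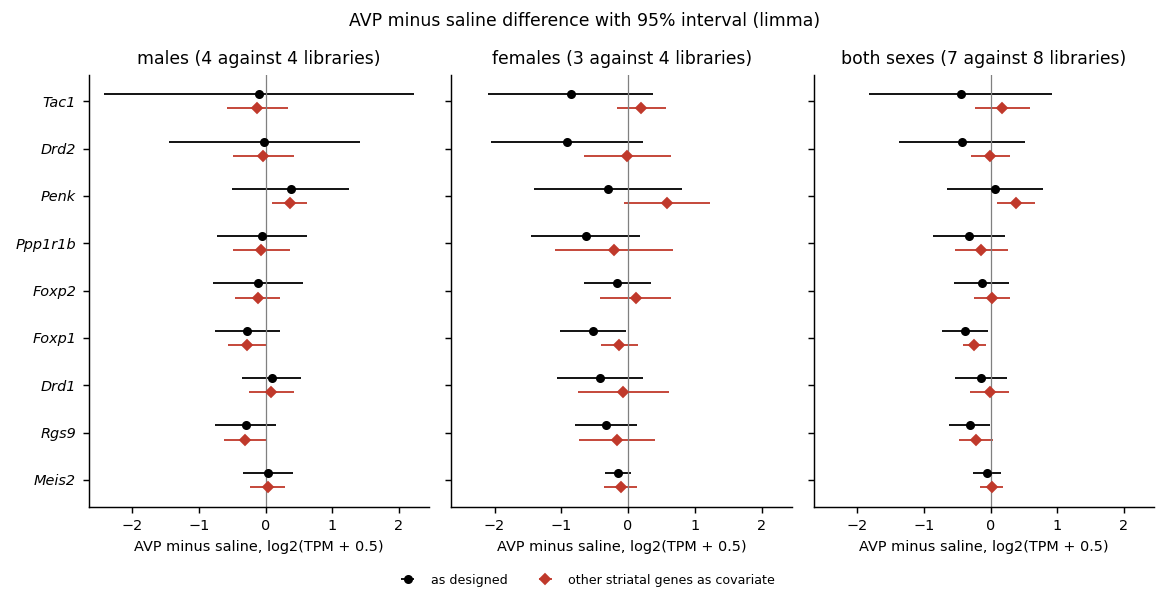
AVP minus saline difference in log2(TPM + 0.5) with its 95% interval for each member, in males, females and both sexes, as designed (black circles) and with the mean of the other striatal genes as a covariate (red diamonds). With the covariate the intervals of Tac1 and Drd2 narrow, and in females Drd2 moves from -0.91 to -0.01 and Tac1 from -0.86 to 0.20.

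Over both sexes, with sex as an additive term, 8 of 9 members were lower on average and 0 of 9 passed (background 0%, 0 of 15078 genes, 1564 of them at an unadjusted p under 0.05). The median of the members was -0.31, against -0.08 over all genes. Foxp1 differed by -0.39 ± 0.16 (adjusted p = 0.47, exact p within sexes = 0.0539) and Rgs9 by -0.31 ± 0.14 (adjusted p = 0.478, exact p = 0.0608). The others ran from -0.45 for Tac1 to 0.06 for Penk, and Penk was at -0.07 without saline male 12. For the interaction of treatment and sex, 0 of 9 members passed (background 0%, 0 of 15078 genes, 624 at an unadjusted p under 0.05), and adjusted p-values ran from 0.896 to 0.988. A difference between the sexes in the response of these genes was therefore not shown. For female versus male, 0 of 9 members passed (background 0%, 0 of 15078 genes, 210 at an unadjusted p under 0.05). Tac1 had the largest difference, 1.06 ± 0.64 higher in females, with an adjusted p of 1. That fit counted saline male 12 as a male, against its sex-linked transcripts. Without this library 7 genes and 0 members were called, so the background of 0% depends on its label.

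The other striatal genes moved with the members. In females 20 of 20 tested were lower after AVP, with a median of -0.51, and 0 passed. Their summed level was 204 to 395 TPM in AVP females and 323 to 466 TPM in saline females, and 231 to 464 TPM in AVP males and 272 to 475 TPM in saline males. In males 10 of 20 were lower, with a median of 0.0022. With the mean of this list as a covariate, the median of the members in females went from -0.42 to -0.07, and 3 members (Penk at 0.58, Tac1 at 0.20 and Foxp2 at 0.11) turned positive. Over both sexes the median went from -0.31 to -0.0039, while Foxp1 was at -0.24 ± 0.08 (adjusted p = 0.653), Rgs9 at -0.22 ± 0.12 and Penk at 0.38 ± 0.13 (each adjusted p = 0.653). The covariate was measured in the same libraries and is itself lower in AVP females, so an AVP effect on striatal neurons and a smaller amount of ventral tissue cannot be told apart by it.

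The libraries came in 2 series of sample numbers, S1 to S8 and S13 to S20, whose meaning the labels do not give. Within S1 to S8, 9 of 9 members were lower in the 2 AVP males than in the 2 saline males, with a median of -0.59, and Tac1 at -1.94. Within S13 to S20, 1 of 9 (Rgs9) was lower in males, with a median of 0.37, and Tac1 at 1.74. In females the median was 0.05 within S1 to S8 (1 AVP library against 2), with 4 of 9 lower, and -0.66 within S13 to S20 (2 against 2), with 9 of 9 lower. Rgs9 was the one member lower after AVP in both sexes within both series. With so few libraries these values had no test.

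**Figure D4:**
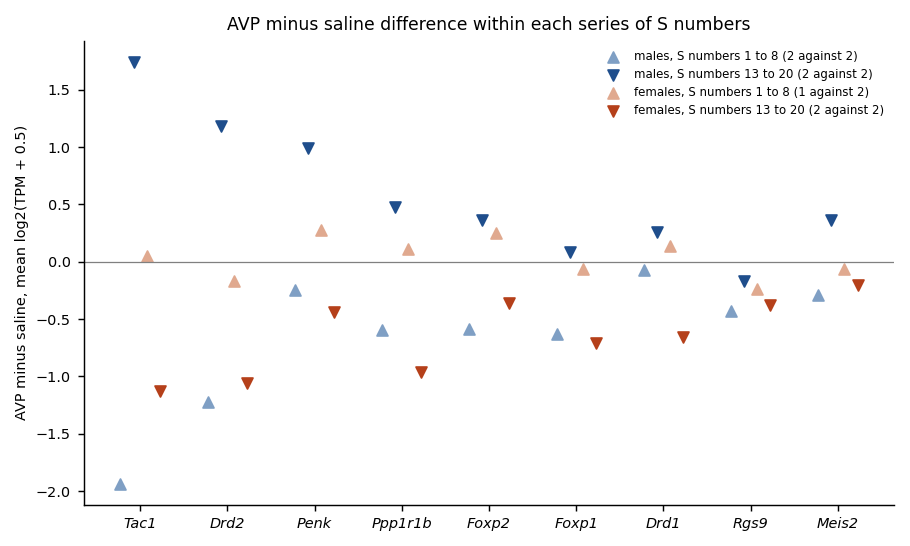
AVP minus saline difference in mean log2(TPM + 0.5) of each member, within each sex and each series of sample numbers (numbers of AVP against saline libraries in the legend). In males all 9 members lie below 0 in S1 to S8, and all but Rgs9 lie above 0 in S13 to S20.

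Markers of neighbouring tissue were read beside these results. The 12 subpallial GABA genes, such as the Dlx genes, summed to 153 to 265 TPM in AVP males, 181 to 232 in saline males, 153 to 266 in AVP females and 203 to 252 in saline females. Of 11 tested, 10 had positive slopes on the other striatal genes, with a median of 0.34, and Dlx6 passed (slope 1.10, adjusted p = 0.0288). Of 11 pallial genes, 9 had negative slopes, with a median of -0.19, and 0 passed. In the pallidal list of 8 genes, Lhx6, which migrating cortical interneurons also express, was at 36.8 to 54.2 TPM. Nkx2-1, Lhx8 and Chat, which define pallidal and cholinergic cells, were at or below 1.503 TPM, and Chat was listed at 0 in most libraries. Mean log2(TPM + 0.5) of the pallidal list was highest in AVP female 3 (0.67), saline female 6 (0.59), AVP male 8 (0.58) and saline male 4 (0.40). The same libraries had the highest means of the other striatal genes. Of the 8 pallidal genes, 4 were under 1 TPM in every library, so this mean lies near the floor, and the relation was not tested. Of 10 hypothalamic genes, 8 were under 1 TPM in every library and Nkx2-4 was listed at 0 in all.

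In females, 7 of 7 meningeal and 5 of 5 red blood cell genes tested were higher after AVP, with medians of 0.86 and 1.04, and 0 passed. Also higher were 5 of 5 septal, 8 of 8 microglial and 6 of 7 endothelial genes, with medians of 0.49, 0.16 and 0.48, and 0 passed. Of 7 choroid plexus genes listed, 5 were tested in females, 2 in males and 3 over both sexes. The 5 tested in females were higher after AVP, with a median of 1.71, and 0 passed. Genes can pass the filter through the group where they are high, so this count does not show a direction for the choroid list. The meningeal list summed to 133 to 179 TPM in AVP females and 79.1 to 97.5 TPM in saline females, and to 83.5 to 179 TPM in AVP males and 38.6 to 178 TPM in saline males. Mean log2(TPM + 0.5) of the red blood cell list was 6.22 to 7.20 in AVP females and 5.20 to 6.26 in saline females. The choroid list summed to 26.9 to 2288 TPM in AVP females and 7.98 to 963 TPM in saline females. Slopes on the other striatal genes were negative for 7 of 7 meningeal, 5 of 5 red blood cell, 5 of 5 septal, 6 of 8 microglial and 4 of 7 endothelial genes and positive for 2 of 3 choroid genes tested. The part of these tissues in the members' differences was not tested.

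Among 25 other genes of dopamine and cyclic AMP signalling, 22 were tested and 0 passed for AVP in either sex or in both. All 22 were lower on average in females, with a median of -0.18 (all genes, -0.05). Over both sexes all 22 were lower as well, with a median of -0.14 (all genes, -0.08). Mean log2(TPM + 0.5) of this list was 4.57 in AVP female 11. It was 5.01 and 5.08 in AVP females 3 and 10, and 5.03 to 5.22 in saline females. Some genes of this list, Gnal, Gng7 and Pde1b among them, also belong to the list of other striatal genes. The smallest p-values over both sexes were those of Pde2a (-0.34 ± 0.15) and Pde1b (-0.19 ± 0.09), both phosphodiesterases, and Prkaca (-0.15 ± 0.07), a protein kinase A subunit, with adjusted p-values of 0.47, 0.478 and 0.479. On the other striatal genes, 3 of 22 had a slope that passed: Pde7b (1.199), Gng7 (0.80) and Gnal (0.76). The latter pair code for G protein subunits and belong to the list of other striatal genes as well.

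Of 13 peptide genes, the tests covered 8 over both sexes and 0 passed for AVP. Pcsk2, a convertase that cuts peptide precursors, had the smallest p (-0.49 ± 0.15, adjusted p = 0.462). Pdyn, the dynorphin precursor of direct pathway neurons, was the 1 gene of this list with a slope that passed (1.38, adjusted p = 0.0122), but it also belongs to the list of other striatal genes. Of 11 relatives and partners of the transcription factors, 10 were tested and 0 passed. Foxp4 (-0.23 ± 0.10) and Meis3 (-0.29 ± 0.13) had the smallest p over both sexes, with adjusted p-values of 0.472 and 0.475. The slope of Bcl11b, which codes for CTIP2 in striatal and deep-layer cortical neurons, was 0.42 ± 0.10 (adjusted p = 0.279).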

How the data were processed

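Stranded poly(A) libraries were made from RNA of E18 dorsal forebrain. The authors trimmed the reads (Trim Galore 0.4.1, FastQC 0.5.2), quantified GENCODE M16 transcripts (GRCm38) with Kallisto 0.43.1 and deposited 1 value per transcript and library, read here as TPM, and they left out 1 AVP female as an outlier. The deposited TPM of 133849 transcripts were added up per gene (GENCODE M21), and 404 transcripts without a gene (0.154% to 0.199% of TPM) were left out. Genes that reached 1 TPM in 50% or more of a comparison's libraries were tested on log2(TPM + 0.5) with limma 3.58.1 (R 4.3.3, mean-variance trend, two-sided, Benjamini-Hochberg over all genes tested, threshold 0.05). Single members had an exact two-sided permutation test, within sexes for the comparison over both. The fits were tested on simulated data. Alternatives covered scaling, filter, pseudocount, trend, covariates, transcripts and leaving out each library.

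The members and marker lists were chosen with earlier results of these data known. The genes named are the members, the 3 genes most like each, and list genes with the smallest p (at most 3 a list) or that define a list, except 1 gene that is not reported here. Rxrg, Isl1, Zic1, Dlx6, Lhx6, Pde7b, Gng7, Gnal, Pdyn and Bcl11b values in other roles were chosen after their values were seen. Promoters came from RefSeq (GRCm38.p6).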

Additional observations from a re-analysis of the deposited data

Results flagged for a closer look

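Among 54 groups of 4 libraries examined over the members and 9 marker lists, 4 had a library far from the other 3 by Dixon's criterion, where chance gives about 1 in 20, or 2.7. Drd1 was at 10.1 TPM in saline female 6, against 7.47 to 7.80 TPM in the other saline females. The mean log2(TPM + 0.5) of the pallidal list was 0.40 in saline male 4, against -0.02 to 0.05 in the other saline males. That of the pallial list was 6.27 in AVP male 9, against 5.77 to 5.82 in the other AVP males. That of the peptide list was 2.12 in saline male 13 (2.115), against 2.39 to 2.41 in the other saline males. Groups of 3 were not examined.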

How the results depend on the processing

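Across the alternatives run, 0 members passed for AVP in males, in females or over both sexes, and the 4 members with a slope on the other striatal genes kept positive slopes except with the pallial list in its place. For AVP in males, median-of-ratios scaling gave 0.054 for Ppp1r1b, 0.062 for Drd2 and 0.000237 for Tac1, quantile normalization gave 0.070 for Ppp1r1b, 0.18 for Drd2, 0.031 for Foxp2 and 0.061 for Tac1, and leaving out saline male 12 gave -0.019 for Meis2. The genes called in males were 0 with a filter of 5 TPM, a pseudocount of 1, the series of sample numbers or either list mean as a covariate, without saline male 12 or in 1 fit of 15 libraries, and 2 without the trend. With the other striatal genes as a covariate, Foxp2 was 0.11, Penk 0.58 and Tac1 0.20 in females, Foxp2 0.023, Tac1 0.17 and Meis2 0.018 over both sexes, the median of the interaction was 0.070, and 1 gene was called for female versus male. With the subpallial genes as a covariate, Penk was 0.10 in females and Meis2 0.0074 over both sexes. Over both sexes, Meis2 was 0.025 under median-of-ratios scaling and Penk was -0.070 without saline male 12, whose removal also gave 7 genes called for female versus male. For the most abundant transcript alone, Meis2 differed by -0.11 in males and 0.0030 in females. The cause of these changes was not tested.

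For the slopes on the other striatal genes, the 5 TPM filter, which tests fewer genes, left 10 genes and 1 member called. With the subpallial list in its place, 0 genes and 0 members were called, while slopes were larger, at 4.37 for Tac1, 2.24 for Drd2, 2.08 for Penk and 0.94 for Foxp1. With the pallial list, 1 gene and 0 members were called, and slopes were -1.77 for Ppp1r1b, -1.32 for Drd1 and for the median, -3.14 for Drd2, -0.95 for Foxp1, -0.93 for Foxp2, -2.11 for Penk, -4.15 for Tac1, -0.55 for Rgs9 and -0.076 for Meis2. With the series of sample numbers as a covariate Foxp2 passed (adjusted p = 0.0143).

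Leaving out each library in turn gave 0 to 6 genes called in males, 0 to 6 in females, 0 to 1 over both sexes, 0 to 1 for the interaction, 0 to 7 for female versus male and 22 to 46 for the slopes, with 3 to 5 members. The median of the members ran from -0.39 to 0.15 in males, -0.74 to -0.26 in females, -0.38 to -0.12 over both sexes, -0.83 to -0.04 for the interaction and 0.04 to 0.19 for female versus male. In males, Ppp1r1b ran from -0.29 to 0.14, Drd1 from -0.034 to 0.23, Drd2 from -0.52 to 0.47, Foxp2 from -0.39 to 0.14, Tac1 from -0.99 to 0.59 and Meis2 from -0.11 to 0.15. In females, Ppp1r1b ran from -1.06 to -0.16, Drd1 from -0.74 to -0.11, Drd2 from -1.51 to -0.60, Tac1 from -1.502 to -0.26, Foxp2 from -0.37 to 0.023 and Penk from -0.74 to 0.23. Over both sexes, Drd1 ran from -0.24 to 0.012 and Penk from -0.11 to 0.32. No paired analysis was possible because the labels do not say which libraries share a dam. With 3 or 4 libraries a group and the depth of each library unknown, differences anywhere within the intervals given remain possible.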
